A study of Homo sapiens with 12 samples.

Results

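Cyclosporin A with eltrombopag was compared with no drug in a cell model of pyroptosis, an inflammatory form of cell death. The comparison sets the 3 libraries of group CE against the 3 libraries of group LPS, 6 of the 12 libraries of the study. All 6 are THP-1 cells, an established human line of monocytic leukaemia cells, and all 6 received LPS and ATP. The CE cells received cyclosporin A and eltrombopag in addition. The drugs were given as a pair, so the part of each in a change cannot be told apart, and neither doses nor times are known from the labels. Of the remaining libraries, 3 were untreated (group NC) and 3 received LPS, ATP, both drugs and luspatercept (group CEL). They entered the fit, so that 12 libraries shared 1 estimate of the spread, and NC is given as a reference level. The model rests on 1 cell line, and nothing in the labels says whether the 3 libraries of a group came from separate cultures.

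Cyclosporin A binds cyclophilin, and the complex blocks calcineurin, the phosphatase that calcium and calmodulin switch on. Calcineurin frees NFAT factors to enter the nucleus, where they induce cytokine genes and RCAN1, which in turn restrains calcineurin. Eltrombopag activates the thrombopoietin receptor and binds iron. LPS signals through TLR4, and extracellular ATP opens the P2X7 channel, which leads to inflammasome assembly in primed monocytes.

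Expression was measured in estimated counts per gene, with 20168897 to 22163321 counts in each of these 6 libraries. Levels are given as CPM, counts scaled to a common library size, and changes as log2 values of CE against LPS ± an approximate standard error from the fit (n = 3 libraries a group). The words rose, fell and changed are kept for genes with an adjusted p under 0.05 in edgeR's quasi-likelihood test. The leukocyte genes CD33, PTPRC and CD68 were present in each of the 6 libraries, with CD33 at a lowest level of 52.55 TPM, a measure per transcript length. MPO and CEBPA, which monocytic precursors can express, stayed at or under 0.2 and 0.5 TPM. The myeloid genes SPI1 and CSF1R were present but uneven, with SPI1 at 3.17, 31.64 and 5.12 TPM in CE 1, 2 and 3. Since cells were sequenced in bulk, fewer cells of a type and less RNA per cell cannot be told apart.

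Of 14065 tested genes, 4057 rose (28.8%) and 2915 fell (20.7%), together 49.6% of the tested genes. By at least 2-fold, 996 rose (7.08%) and 1046 fell (7.44%). The 3 CE and 3 LPS libraries did not overlap for 7684 genes (54.6%). The labels give each library a batch number, with 1 library per group in each. The direction of the change was the same in all 3 batches for 4008 of the genes that rose (98.8%) and 2879 of those that fell (98.8%). These genes were called on the same libraries, so a shared direction follows largely from the call and is not separate evidence. Since so many genes changed, a list is described below by its split between rises and falls, set beside these shares, and by its median beside the median log2 change of 0.081 over the tested genes (-0.0328 without CE 2).

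The library CE 2 stood apart from CE 1 and CE 3, so each call was made again without it. Without CE 2, 8204 genes were called (58.3%), 4235 higher and 3969 lower. Of the calls made with all libraries, 3850 of the rises (94.9%) and 2706 of the falls (92.8%) held, together 46.6% of the tested genes. Held means the same direction and an adjusted p under 0.05 on the same 14065 genes with CE 2 left out. A further 207 rises and 209 falls were lost, and 0 turned direction. Losses were no more frequent than when another CE library was left out: 91.3% of rises and 89.0% of falls held without CE 1, and 84.1% and 87.6% without CE 3. New calls were mostly falls, with 385 rises and 1263 falls called only once CE 2 was left out. The falls of at least 2-fold then went from 1046 to 1836, and the rises from 996 to 925.

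**Figure D1:**
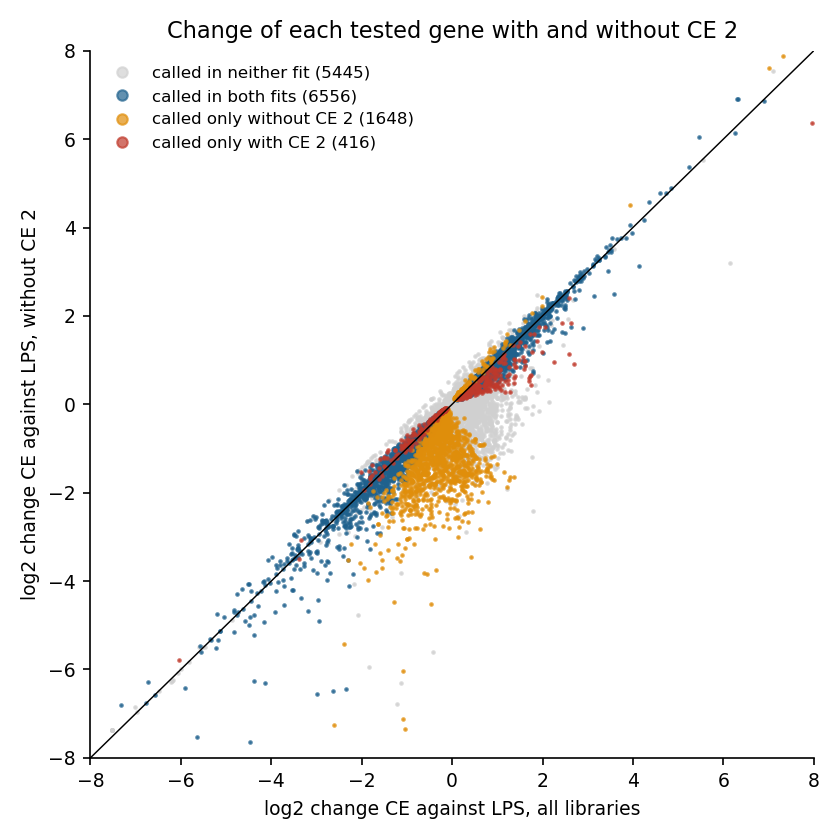
Each point is a tested gene, with its log2 change of CE against LPS from all libraries on the horizontal axis and from the fit without CE 2 on the vertical axis; colours mark genes called in both fits (6556), only with CE 2 (416), only without it (1648) or in neither (5445), the line marks equal changes, and 3 points lie outside the axes. Genes called only without CE 2 lie mostly below the line, with 1263 lower and 385 higher.

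Deviations of CE 2 of at least 2-fold were nearly all in 1 direction. Over the 7460 genes at 3 or more in mean log2 CPM, CE 2 was at least 2-fold above the mean of CE 1 and CE 3 for 435 and at least 2-fold below it for 1. For CE 1 these numbers were 1 and 217, and for CE 3 they were 0 and 23. The standard deviation of the log2 differences was 0.483 for CE 2, 0.339 for CE 1 and 0.183 for CE 3, beside 0.181 to 0.253 for the LPS libraries. The translation factor EEF2 shows the pattern, with 98.5, 79.4 and 181 CPM in LPS 1, 2 and 3 and 30.5, 448 and 43.7 CPM in CE 1, 2 and 3. CE 2 was the highest of the 6 libraries and CE 1 and CE 3 the lowest, so the groups overlapped. The splicing regulator PTBP1 (5.71, 84.03 and 8.87 CPM in the 3 CE libraries), the cell cycle factor MYBL2 (7.38, 109 and 11.9) and the actin-binding protein LASP1 (4.92, 66.8 and 7.32) had the same shape. So had the non-muscle myosin MYH9 (37.1, 517 and 62.9) and the actin crosslinker ACTN4 (4.63, 63.1 and 7.52). These 6 genes had the largest such differences. They did not pass with all libraries, where their log2 changes lay above 0, and each fell without CE 2. At the other end HYPK, a partner of the huntingtin protein, was at 49.95, 11.5 and 44.6 CPM in CE 1, 2 and 3.

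For most of these genes CE 2 did not lie between the model and the rest of its group. Of the 436 genes at least 2-fold off, 27 (6.19%) were between the LPS mean and the mean of CE 1 and CE 3, and 372 were above every LPS library. Their median level was 12.3, 45.9 and 15.6 CPM in CE 1, 2 and 3, and 20.8, 19.1 and 29.7 CPM in LPS 1, 2 and 3. The same genes ranked high in particular libraries of other groups. LPS 3 was the highest LPS library for 99.1% of them, against 23.5% of the other genes, and CEL 1 the highest CEL library for 99.1%, against 20.7%. Within CE, CE 1 was the lowest library for 421 of them.

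These genes were rich in G and C. Their median GC content was 55.6%, beside 45.4% for the other genes, and 300 of the 432 with a known GC content (69.4%) were in the highest quintile of genes by GC content. From the lowest to the highest quintile, the share of genes with CE 2 at least 2-fold above CE 1 and CE 3 was 0.543%, 1.15%, 1.56%, 5.7% and 20.4%. The median log2 difference of CE 2 from their mean was -0.129, -0.126, -0.124, -0.065 and 0.216 in the same order. In the highest quintile CE 2 lay 0.236 log2 units above the mean of the 6 libraries in the median, and CE 1 and CE 3 lay at -0.0723 and -0.0921. LPS 3 lay at 0.0618, above LPS 1 at -0.062 and LPS 2 at -0.0955. The median change of the highest quintile was 0.11 with CE 2 and -0.0704 without it. Across 7366 genes the CE 2 difference and GC content had a rank correlation of 0.341, given as a description since genes share these libraries. The part of GC content in the deviation was not tested.

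**Figure D2:**
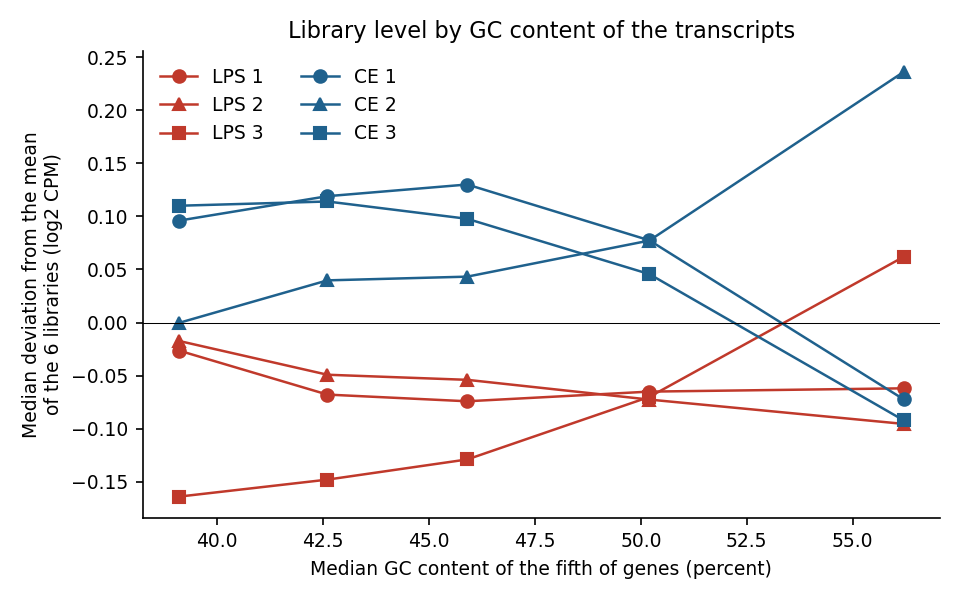
The vertical axis is the median deviation of each LPS and CE library from the mean of the 6 libraries, in log2 CPM. The horizontal axis is the median GC content of each quintile of genes by GC content, in percent. CE 2 reaches 0.236 in the highest quintile, where CE 1 and CE 3 lie at -0.0723 and -0.0921.

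Each CE library was also read on genes that it did not help to choose, those changed at least 2-fold in the other CE libraries. A value of 100% means that the left-out library changed as much as the others. CE 1 showed a median of 94.4% over 2089 genes and CE 3 98.3% over 1962. CE 2 showed 82.5% over 2761 genes, with quartiles of 4.99% and 102%. Its rises were complete in the median, at 95.1% over 925 genes, of which 99.1% went the same way. Its falls were not, at 45.1% over 1836 genes, of which 64.7% went the same way. So CE 2 shared most rises of its group. Of the falls of CE 1 and CE 3, it showed many only in part. Others went the opposite way in CE 2, with a lower quartile of -32.0% over the falls.

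**Figure D3:**
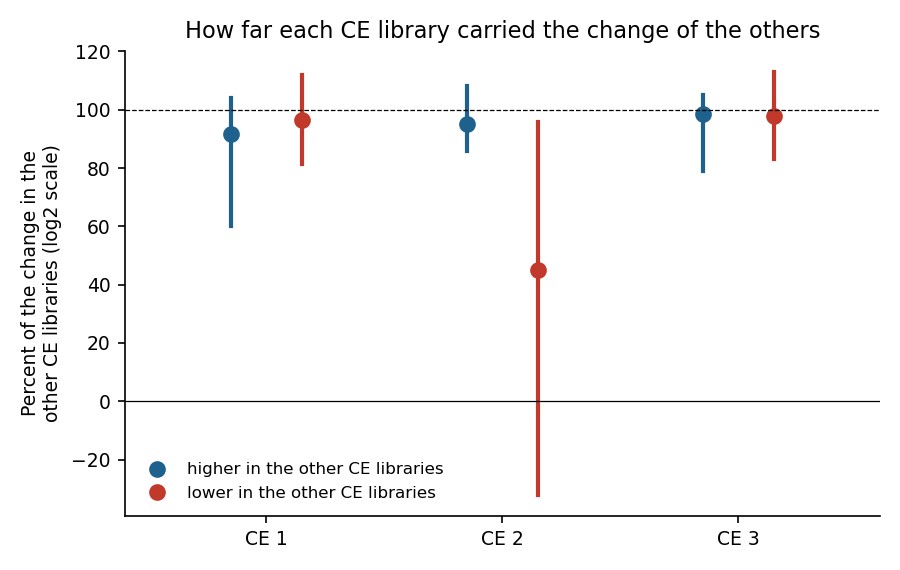
For each CE library the points give the median, and the bars the quartiles, of its own change as a percent of the change in the other CE libraries, over genes changed at least 2-fold in those. The median for falls in CE 2 is 45.1%, while the other medians lie between 91.8% and 98.5%.

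The clearest falls did not depend on CE 2. RCAN1, the calcineurin regulator at chr21:34513142-34615142 on the minus strand of chromosome 21 (hg38), had 406, 402 and 379.6 CPM in LPS 1, 2 and 3 and 9.11, 13.04 and 10.5 CPM in CE 1, 2 and 3. Every CE library was also below the NC mean of 17.5 CPM. The log2 difference within batches 1, 2 and 3 was -5.46, -4.94 and -5.16, and the change was -5.18 with CE 2 and -5.33 without it (adjusted p = 1.89e-10 and 4.51e-12). HSD11B1, which regenerates active cortisol, lies at chr1:209686178-209734950 on the plus strand. It was at 116, 121 and 117 CPM in LPS and 3.35, 3.47 and 3.32 CPM in CE. The 3 CE libraries were nearly equal and below the NC mean of 34.2 CPM, with a change of -5.12 ± 0.10 (adjusted p = 8.88e-11). S100A8, a subunit of calprotectin at chr1:153390032-153391188 on the minus strand, was at 479, 492 and 454 CPM in LPS and 17.4, 16.6 and 19.2 CPM in CE. Again the groups were far apart, and the change of -4.74 ± 0.064 was -4.69 without CE 2 (adjusted p = 3.07e-12 and 1.76e-12).

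FCGR2B, the inhibitory IgG receptor at chr1:161663147-161678654 on the plus strand, went the other way, from 3.73, 5.25 and 3.68 CPM in LPS to 46.8, 45.6 and 47.5 CPM in CE. Untreated cells had 0.485 CPM, so the CE level was above both other groups. The change was 3.46 ± 0.14, with 3.61, 3.10 and 3.65 within batches 1, 2 and 3 and 3.49 without CE 2 (adjusted p = 8.6e-09 and 1.14e-09). FCGR2B and its neighbour FCGR2C are nearly identical in sequence, so reads may be split between them. FCGR2C rose too, from 2.44 to 13.98 CPM, as did the activating receptor FCGR2A, from 64.4 to 111 CPM. FCGR1A, the high-affinity IgG receptor, fell from 195 to 36.7 CPM. Of 7 tested Fc gamma receptor genes and adaptors, 4 rose and 2 fell.

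**Figure D4:**
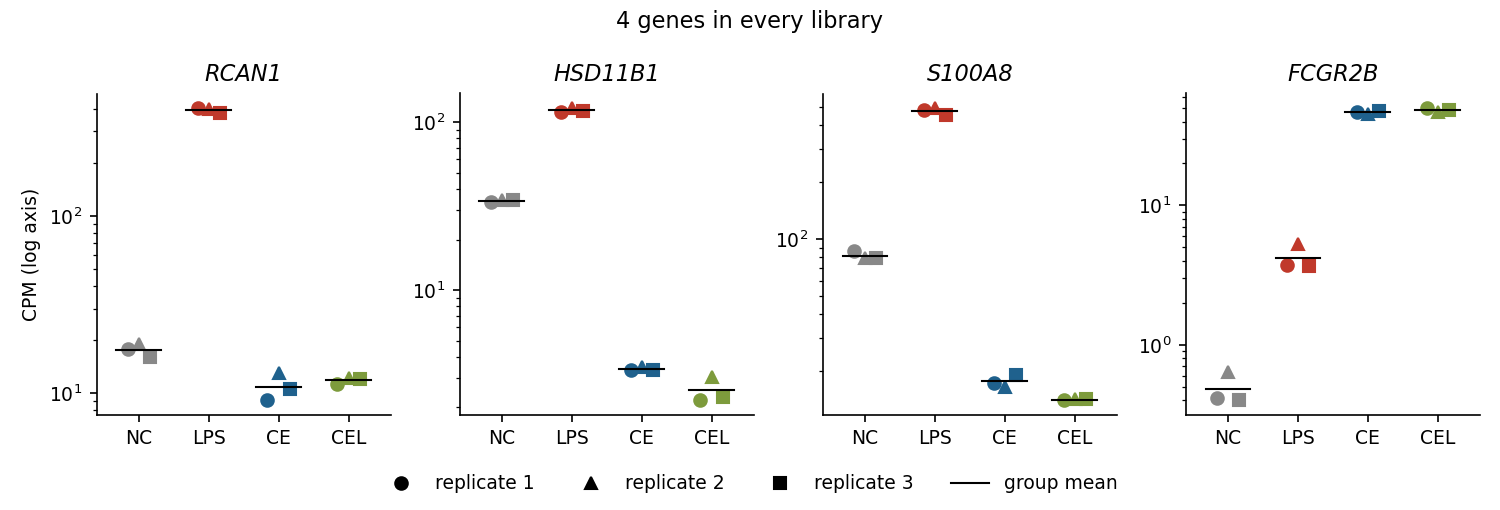
CPM on a log axis for RCAN1, HSD11B1, S100A8 and FCGR2B in each library of NC, LPS, CE and CEL, with a symbol per replicate number and a bar at the group mean. CE lies below LPS for the first 3 genes and above it for FCGR2B, and CE 2 lies beside CE 1 and CE 3 in each.

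The largest rises that held, beyond FCGR2B, were of genes with varied roles. DUSP10, a phosphatase that turns off p38 and JNK kinases, had 33.6, 32.8 and 31.7 CPM in LPS and 250.2, 209 and 243 CPM in CE (2.84 ± 0.067, adjusted p = 2.01e-10). LDLRAD4, which restrains TGF-beta signalling, had 11.3, 12.7 and 12.1 CPM in LPS and 86.2, 90.1 and 89.5 CPM in CE (2.88 ± 0.079). NR1D2, a repressor of the circadian clock, had 34.2, 35.6 and 29.1 CPM and 218, 218 and 229.9 CPM (2.75 ± 0.082). The NC means were 19.8, 14.1 and 27.8 CPM, so CE was the highest of these 3 groups for each gene. TGM5, a transglutaminase, had 2.95, 2.79 and 3.15 CPM in LPS and 26.9, 24.4 and 26.5 CPM in CE, which is near its NC mean of 25.1 CPM. The cytokine IL16, a ligand of CD4, rose from 9.83 to 56.5 CPM, and XK, a membrane protein of the Kx blood group, from 30.3 to 171 CPM. The inhibitory receptor CD300A was at 114, 98.2 and 102 CPM in CE, against 10.7, 10.4 and 11.99 CPM in LPS. CREBRF, a regulator of metabolic stress, stood at 239, 237 and 255 CPM against 29.5, 28.7 and 26.1 CPM, and the ubiquitin ligase adaptor KLHL24 at 94.4, 98.5 and 97.9 against 12.3, 14.1 and 12.1 CPM. CE 2 was within the range of its group or close to it in each, and the folds of these genes other than TGM5 without CE 2 were 5.53 (IL16) to 9.85 (CD300A).

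The falls named here were likewise chosen among those that held without CE 2. Of all 1046 falls of at least 2-fold, 998 held (95.4%). SERPINA1, the alpha-1 antitrypsin gene, went from 138, 134 and 137 CPM in LPS to 15.8, 14.7 and 14.5 CPM in CE (-3.18 ± 0.11, adjusted p = 2.64e-09). It was at 1.61 CPM in NC, so CE lay between NC and LPS. MS4A6A, a membrane protein of macrophages, went from 147, 149 and 141 to 17.4, 15.3 and 17.3 CPM (-3.13 ± 0.071), and DHRS9, a retinoid dehydrogenase, from 104, 103 and 100.03 to 17.96, 15.5 and 17.2 CPM (-2.6 ± 0.072). NC held 159 CPM of MS4A6A and 126 CPM of DHRS9, so NC and LPS both lay far above CE. BEX1 had 38.4, 36.6 and 34.5 CPM in LPS and 5.81, 4.72 and 5.59 CPM in CE, beside 164 CPM in NC. FUT4, the enzyme that makes the CD15 epitope, rested more on the library: it was at 2.904, 9.14 and 3.76 CPM in CE 1, 2 and 3, and the fall grew from 7.41-fold to 11.7-fold without CE 2. CD93, a surface receptor of myeloid cells, did the same, with 1.92, 6.83 and 2.36 CPM in CE and a fold of 15.0 that became 25.8.

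Around calcineurin, the regulator RCAN1 fell, and rises outnumbered falls. Of 17 tested genes of calcineurin and NFAT, 9 rose, 4 fell and 4 did not pass, with a median log2 change of 0.681 (0.528 without CE 2). Without CE 2, 8 rose and 4 fell, and 3 members had CE 2 at least 2-fold above CE 1 and CE 3. Apart from RCAN1, the factor NFAT5, which responds to salt stress and lacks a calcineurin site, went from 29.7, 29.4 and 31.2 CPM in LPS to 72.2, 83.4 and 84.4 CPM in CE. NFATC3, a calcineurin-dependent NFAT, rose from 77.9 ± 1.42 to 125 ± 3.27 CPM (SD, n = 3), and RCAN3, a relative of RCAN1, from 4.56 ± 0.837 to 12.05 ± 0.819 CPM. So RCAN1 and RCAN3 went opposite ways, with log2 changes of -5.18 and 1.40. The NFAT core GGAAA was in 6 of 11 promoters of the list (54.5%), beside 60.4% of the promoters of tested genes. Of these calls 12 of 13 held without CE 2. The immediate early genes, which calcium and kinases induce within minutes, had 2 rises, 1 fall and 10 of 13 not passed. EGR2 rose from 1.87, 1.23 and 1.82 CPM to 6.35, 9.14 and 6.697 CPM and ATF3 from 12.1, 10.9 and 10.5 CPM to 33.4, 34.3 and 32.6 CPM. Their list turned with the library: the median was 0.376 with CE 2 and -0.47 without it, where 5 fell.

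Most hypoxia genes rose. The hypoxia-inducible factor (HIF) is destroyed in normal oxygen by iron-dependent prolyl hydroxylases, and when stable it binds a short core sequence near its targets. Of 25 tested genes of the HIF pathway, 16 rose, 0 fell and 9 did not pass (median 0.746, and 0.814 without CE 2), and all 16 held. Without CE 2, 3 members fell, and under other scalings 14 to 16 rose and 1 to 3 fell. The promoter of BNIP3L, among the members of smallest p, is not printed. Promoters of 3 other members that rose are shown, also from those of smallest p, with the core ACGTG marked. Each is given 5′ to 3′, from 250 bases before to 50 bases after the RefSeq start (GRCh38.p14), with matches on either strand in capitals.
BHLHE40 (chr3:4979187-4979486, plus strand): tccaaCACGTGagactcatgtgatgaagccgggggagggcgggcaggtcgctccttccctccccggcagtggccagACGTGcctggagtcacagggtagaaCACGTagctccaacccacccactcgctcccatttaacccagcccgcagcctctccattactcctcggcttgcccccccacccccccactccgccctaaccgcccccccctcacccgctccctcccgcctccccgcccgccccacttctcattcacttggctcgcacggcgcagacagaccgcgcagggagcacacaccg
BNIP3 (chr10:131981874-131982173, minus strand): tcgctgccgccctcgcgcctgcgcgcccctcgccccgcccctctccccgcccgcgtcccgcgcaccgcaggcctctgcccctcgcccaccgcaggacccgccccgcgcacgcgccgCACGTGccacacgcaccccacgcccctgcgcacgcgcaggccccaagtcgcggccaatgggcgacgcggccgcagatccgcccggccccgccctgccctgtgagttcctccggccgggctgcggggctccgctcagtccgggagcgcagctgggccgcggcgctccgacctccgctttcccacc
KDM3A (chr2:86441121-86441420, plus strand): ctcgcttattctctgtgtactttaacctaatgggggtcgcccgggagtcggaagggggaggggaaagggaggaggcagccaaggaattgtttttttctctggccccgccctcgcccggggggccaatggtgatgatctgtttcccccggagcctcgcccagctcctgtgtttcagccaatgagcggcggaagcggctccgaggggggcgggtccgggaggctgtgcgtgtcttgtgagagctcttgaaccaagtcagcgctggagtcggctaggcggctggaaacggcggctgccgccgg
BHLHE40 had 4 matches, 2 of which overlap as the palindrome of the core, BNIP3 had 2 overlapping ones, and KDM3A had 0 in this window. The core was found in 11 of 20 promoters of the list (55.0%), in 26.9% of the promoters of tested genes and in 21.6% of all 27305 in the table. A match is a description of letters and not a binding site.

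BHLHE40, a transcription repressor, had 29.9, 30.9 and 30.9 CPM in LPS and 159, 163 and 158 CPM in CE (2.39 ± 0.046, adjusted p = 6.28e-11). The mitophagy receptors BNIP3 and BNIP3L followed, with 55.7, 61.4 and 49.6 CPM in LPS and 205, 177 and 193 CPM in CE for BNIP3. BNIP3L had 42.3, 42.3 and 36.9 CPM in LPS and 226, 188 and 211 CPM in CE. KDM3A, an oxygen-dependent histone demethylase, had 215, 204 and 219 CPM in CE and 69.3, 75.05 and 69.8 CPM in LPS, so it rose with no match in the window shown. In all 4 genes the groups were far apart and CE 2 lay near CE 1 and CE 3. NC was near LPS for BNIP3, BNIP3L and KDM3A (45.8, 39.7 and 69.6 CPM) and lower for BHLHE40 (4.896 CPM). Of 29 glycolysis genes, 16 rose, 4 fell and 9 did not pass, with a median of 0.637 that was 0.341 without CE 2. ENO2, the neuronal enolase, went from 1.72, 1.51 and 1.91 CPM to 18.8, 19.1 and 18.6 CPM, and ALDOC, the brain aldolase, from 13.2, 12.4 and 11.9 CPM to 101, 85.5 and 90.2 CPM. The glucose transporter SLC2A3 rose 2.84-fold and the isomerase GPI 1.82-fold.

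**Figure D5:**
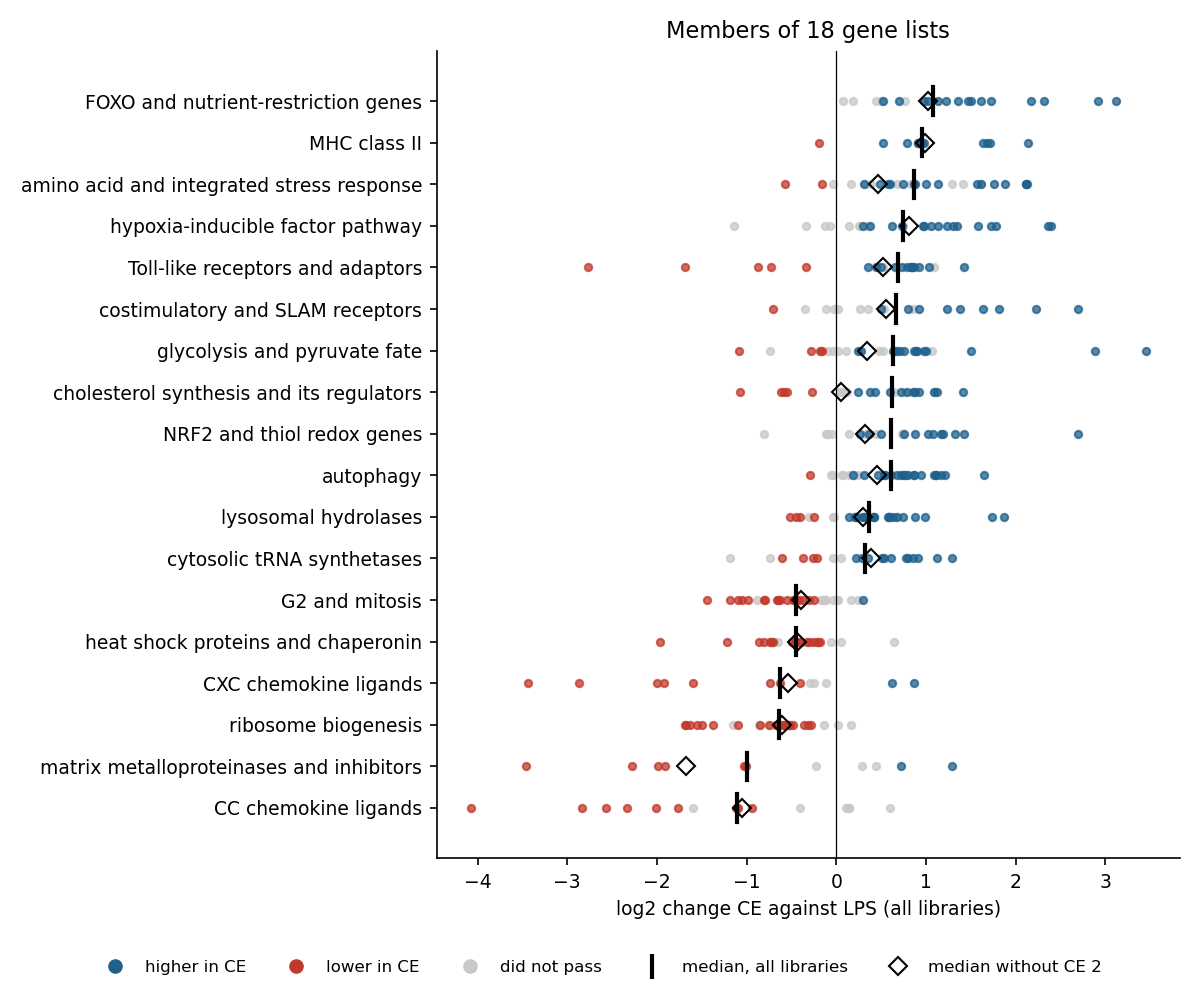
Each point is a tested member of 1 of 18 gene lists, chosen for display after their values were seen, placed by its log2 change of CE against LPS (blue higher, red lower, grey not passed). Bars mark the list median with all libraries and diamonds the median without CE 2, such as 0.746 and 0.814 for the HIF pathway.

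Iron and heme genes were split. Of 19 tested iron genes 9 rose and 6 fell, and the sign of their median turned between scalings. FBXL5, the ligase adaptor that senses iron and degrades iron regulatory proteins, fell from 135, 138 and 121 CPM to 65.1, 57.5 and 65.3 CPM, close to its NC mean of 57.4 CPM. The importer SLC11A2 (DMT1) rose from 76.7 ± 3.45 to 123 ± 5.84 CPM, and the importer SLC39A8 fell from 215 ± 9.72 to 150.1 ± 1.73 CPM. FTH1, the heavy chain of the iron store ferritin, has pseudogenes that may share its reads, and it rose from 1951 to 2982 CPM. Of 15 heme genes 1 rose and 5 fell. HMOX1, which breaks heme down and releases its iron, fell from 24.1, 23.8 and 27.6 CPM to 13.5, 19.4 and 14.2 CPM, with CE 2 nearest to LPS.

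Most genes of the amino acid and stress response rose. The factor ATF4, made when uncharged tRNA or other stress slows translation, induces amino acid synthesis, transport and tRNA charging through elements with the core TGATGNA. Of 27 tested genes of this response, 16 rose, 2 fell and 9 did not pass. The median of 0.867 became 0.464 without CE 2, and 9 members had CE 2 at least 2-fold above CE 1 and CE 3. Asparagine synthetase, ASNS, had 43.7, 41.4 and 36.8 CPM in LPS and 189, 161 and 182 CPM in CE (2.13 ± 0.076, adjusted p = 4.01e-09), with CE 2 the lowest CE library. Its promoter is shown as an example with the core, in capitals, in the same format and build as above.
ASNS (chr7:97872359-97872658, minus strand): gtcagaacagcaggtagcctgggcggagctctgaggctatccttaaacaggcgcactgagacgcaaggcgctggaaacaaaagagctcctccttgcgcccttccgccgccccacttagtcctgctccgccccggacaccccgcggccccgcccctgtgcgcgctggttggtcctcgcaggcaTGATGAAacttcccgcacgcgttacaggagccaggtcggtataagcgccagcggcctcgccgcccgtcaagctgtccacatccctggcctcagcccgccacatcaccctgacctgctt
The core was found in 4 of 22 promoters of the list (18.2%) and 7 of 16 of the cytosolic tRNA synthetases (43.8%), beside 5.5% of the promoters of tested genes and 10.2% of all. The promoters of PSAT1, DDIT3 and ATF4, the next members described, had 0 matches in this window.

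PSAT1, of serine synthesis, rose from 127, 126 and 112 CPM to 448, 358 and 422 CPM, beside an NC mean of 344 CPM. DDIT3, a stress factor that can promote death, rose 3.05-fold and ATF4 itself 1.52-fold. Of 20 tRNA synthetases, which load amino acids onto tRNA, 12 rose, 4 fell and 4 did not pass (median 0.322, and 0.391 without CE 2). WARS1, for tryptophan, went from 239, 243 and 235 CPM to 565, 475 and 517 CPM. CARS1, for cysteine, rose 2.45-fold, YARS1, for tyrosine, 1.88-fold and AARS1, for alanine, 1.81-fold. Folding genes of the endoplasmic reticulum were split, 10 up and 6 down of 24, and the sign of their median turned between scalings. The co-chaperone DNAJB9 rose from 21.1 ± 2.25 to 86.01 ± 4.598 CPM, SEL1L and HERPUD1, of the disposal of misfolded proteins, rose 1.79-fold and 1.65-fold, and MANF, a secreted folding factor, fell 1.67-fold.

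Most chaperones fell. Of 23 heat shock proteins and chaperonin subunits, 0 rose, 18 fell and 5 did not pass, and 17 of the falls held (median -0.45, and -0.434 without CE 2). HSPA8, the constitutive HSP70, had 4108, 4136 and 3928 CPM in LPS and 1131, 928 and 1053 CPM in CE (-1.97 ± 0.081, adjusted p = 9.24e-09). CE was far below NC too, at 3419.6 CPM. The small heat shock protein HSPB1 went from 39.04, 42.02 and 43.8 CPM to 15.7, 19.7 and 18.1 CPM. The chaperonin subunit CCT2 and the mitochondrial cochaperonin HSPE1 fell 1.75-fold and 1.81-fold. HSPA8 and HSPE1 have many pseudogenes that can share reads.

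FOXO factors induce genes when nutrients or growth signals are short, and most of a list of FOXO and nutrient-restriction genes rose. The list is mixed and does not measure FOXO activity. Of 22 tested, 15 rose, 0 fell and 7 did not pass, with a median of 1.08 (1.02 without CE 2). TSC22D3, a leucine zipper protein that glucocorticoids also induce, had 13.4, 13.01 and 14.1 CPM in LPS and 74.3, 60.5 and 67.2 CPM in CE. The cyclin CCNG2, which slows the cell cycle, had 15.96, 16.2 and 13.8 CPM and 69.98, 65.3 and 72.5 CPM. Both were at or below their NC means in LPS (16.8 and 21.5 CPM) and above them in CE. Of 31 autophagy genes, 20 rose, 1 fell and 10 did not pass (median 0.612, and 0.451 without CE 2, where 3 fell). The cargo receptor OPTN rose 2.32-fold, the vesicle protein MAP1LC3B 2.15-fold and the lipid kinase partner UVRAG 2.16-fold. The call of the cargo receptor SQSTM1 was kept in only 7 of 19 alternative fits. CE 2 had 274 CPM of it, beside 71.6 in CE 1 and 83.5 in CE 3. Of 30 lysosomal genes, 19 rose, 4 fell and 7 did not pass. The proton pump subunits ATP6V1H and ATP6V1A rose 3.64-fold and 1.98-fold, the cholesterol exporter NPC1 1.84-fold and the protease CTSS 1.60-fold.

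Most genes of ribosome biogenesis fell, while those of cytosolic ribosomal proteins had no direction that held under every scaling. Of 29 tested genes of ribosome biogenesis, which build ribosomes in the nucleolus, 0 rose, 22 fell and 7 did not pass (median -0.638, and -0.605 without CE 2). All 22 held, and 27 fell without CE 2. NOP56, of the methylation complex for ribosomal RNA, had 248, 253 and 245 CPM in LPS and 85.00, 77.4 and 78.2 CPM in CE, beside 310.4 CPM in NC (-1.63 ± 0.046, adjusted p = 6.63e-10). NOP16 had 56.3, 57.3 and 56.9 CPM and 20.7, 17.9 and 19.4 CPM, and UTP20, a large scaffold protein, 70.1, 67.4 and 71.9 CPM and 33.9, 30.8 and 32.96 CPM. Nucleolin, NCL, fell from 1912 ± 19.6 to 1063 ± 82.7 CPM. In each of these genes the CE libraries lay below all LPS libraries, with CE 2 in or near the range of CE 1 and CE 3. They were chosen by smallest p with CE 2 in the fit. Of the 29 members, 8 had CE 2 at least 2-fold above CE 1 and CE 3. Of 43 cytosolic ribosomal protein genes, 15 rose, 2 fell and 26 did not pass, with RPL28 at 0.53 and RPL3 at -0.33. Without CE 2, 28 rose and 2 fell. Under other scalings 3 to 6 rose and 2 to 8 fell and the sign of their median turned, and their reads can match pseudogenes. Of 33 mitochondrial ribosomal proteins 4 rose and 13 fell, with MRPS7 at -0.95. Respiratory chain genes of the nucleus and of mitochondria were split, and their medians changed sign with scaling.

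Most cell cycle genes of mitosis fell. Of 32 tested genes of G2 and mitosis, 1 rose, 20 fell and 11 did not pass (median -0.447). Cyclin B1, CCNB1, which drives entry into mitosis, had 281, 281 and 261 CPM in LPS and 133, 108 and 121 CPM in CE. CDC20, the activator of the anaphase-promoting complex, had 339.99, 346 and 382 CPM and 174, 181 and 161 CPM. The kinesin KIF20A fell 2.72-fold and HMMR, a spindle protein, 2.13-fold. In LPS the means of CCNB1 and CDC20 were near those of NC (268 and 375 CPM). Of 34 genes of DNA replication and G1/S, 6 rose and 12 fell, and 10 of the 34 had CE 2 at least 2-fold above CE 1 and CE 3. Cyclin E1, CCNE1, fell from 26.7 ± 0.521 to 12.01 ± 0.566 CPM and the polymerase subunit POLE2 from 28.3 ± 1.52 to 11.2 ± 1.101 CPM. Histone transcripts lack a poly(A) tail and were uneven, with H1-2 at 16.6, 1.66 and 2.31 CPM in LPS 1, 2 and 3 and 1.82, 2.36 and 1.35 CPM in CE. LPS 1 was high and the groups overlapped. Of the 6 LPS and CE libraries, LPS 1 also had the largest share of ribosomal RNA, 2.451% of counts.

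The medians of the sterol and redox lists were above 0 and smaller without CE 2. Of 26 genes of cholesterol synthesis and its regulators, 12 rose, 5 fell and 9 did not pass, and the median of 0.621 was 0.0487 without CE 2, with CE 2 at least 2-fold above CE 1 and CE 3 for 7 members. The exporter ABCA1 had 87.3, 84.4 and 83.95 CPM in LPS and 209, 225 and 245 CPM in CE. SQLE, an early enzyme of sterol synthesis, had 214, 217 and 206 CPM and 412, 389 and 407 CPM, and MYLIP, which degrades the LDL receptor, rose 2.12-fold. So a gene of sterol synthesis and a gene of sterol efflux both rose. Of 22 genes of NRF2 and thiol redox control, 12 rose, 0 fell and 10 did not pass (median 0.614, and 0.318 without CE 2, where 3 fell). NFE2L2, which encodes NRF2, had 259, 254 and 231 CPM in LPS and 549.6, 482 and 536 CPM in CE. Malic enzyme ME1 rose 2.27-fold and thioredoxin reductase TXNRD1 2.03-fold. The metal sensor MTF1 fell from 150.03 ± 0.777 to 104 ± 2.47 CPM and the metallothionein MT1X from 24.2 ± 0.844 to 15.3 ± 2.15 CPM.

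Among the genes that sense LPS, CD14 fell and TLR4 rose. Of 20 tested Toll-like receptors and adaptors, 13 rose, 5 fell and 2 did not pass. CD14, which hands LPS to TLR4, had 41.9, 42.5 and 47.7 CPM in LPS and 7.43, 6.06 and 5.83 CPM in CE, beside 0.872 CPM in NC. TLR4 itself went from 39.4, 40.3 and 34.1 CPM to 68.95, 65.8 and 73.3 CPM. The kinase partner TAB2 rose 1.78-fold and IRAK3, which restrains the pathway, fell 1.65-fold. Of 20 NF-kB subunits and inhibitors, 6 rose, 1 fell and 13 did not pass, and the median of 0.444 was -0.0132 without CE 2, where 5 rose and 6 fell. The feedback genes TNFAIP3, NFKBIA and CYLD, from the members of smallest p, held. TNFAIP3, a ubiquitin editor that shuts NF-kB signalling off, had 169, 174 and 179 CPM in LPS and 421, 532 and 468 CPM in CE. The inhibitor NFKBIA had 177, 178 and 169 CPM and 306, 297 and 287 CPM, and CYLD, a deubiquitinase of the same pathway, rose 1.88-fold.

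In the interleukin-1 family, 5 of 13 tested genes rose and 5 fell. The decoy receptor IL1R2 had 8.35, 8.75 and 8.83 CPM in LPS and 0.246, 0.193 and 0.0964 CPM in CE, and the antagonist IL1RN 190.1, 191 and 172 CPM and 73.3, 58.6 and 67.4 CPM. The signalling receptor IL1R1 went from 15.3, 15.8 and 13.9 CPM to 35.3, 39.9 and 38.1 CPM. The inhibitors IL1R2 and IL1RN thus fell and the receptor rose, as did IL18R1, from 8.48 to 46.1 CPM. Of 21 inflammasome, caspase and gasdermin genes, 8 rose and 7 fell. NAIP, which senses bacterial needle and flagellin proteins, had 75.5, 77.2 and 70.1 CPM in LPS and 12.6, 14.6 and 14.1 CPM in CE. NEK7, a kinase that NLRP3 needs, had 209, 211 and 170.3 CPM and 385, 341 and 388 CPM, and NLRP3 had 283, 257 and 271 CPM in CE against 107, 104 and 107 CPM. The CE and LPS libraries did not overlap for any of these genes. That follows largely from their choice by smallest p, and 54.6% of all tested genes did not overlap either.

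Most CC chemokines fell. These attract monocytes and lymphocytes, and of 15 tested, 0 rose, 9 fell and 6 did not pass (median -1.11, and -1.05 without CE 2). CCL8 had 90.5, 90.2 and 74.4 CPM in LPS and 5.22, 4.14 and 5.73 CPM in CE (-4.08 ± 0.19, adjusted p = 1.85e-08). CCL2, the main ligand of CCR2, had 950.1, 974 and 778 CPM and 459, 387 and 417 CPM, and CCL4 113, 123 and 103 CPM and 31.4, 24.7 and 28.4 CPM. CCL20, a ligand of CCR6, fell 2.16-fold. CCL4 can share reads with its copy CCL4L2, and no CC chemokine of the list had CE 2 at least 2-fold above CE 1 and CE 3. Of 13 CXC chemokines, 2 rose and 8 fell. The neutrophil attractant CXCL1 had 63.9, 62.2 and 58.2 CPM in LPS and 19.4, 20.2 and 21.4 CPM in CE. CXCL10, induced by interferon, fell from 188 ± 15.2 to 121 ± 13.4 CPM, and CXCL11, a ligand of the same receptor CXCR3, rose from 22.8 ± 1.003 to 35.2 ± 2.596 CPM.

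Among chemokine and formyl peptide receptors, 2 of 16 rose and 7 fell. CCR2, the monocyte receptor for CCL2, had 130.3, 130.5 and 119.8 CPM in LPS and 12.01, 10.6 and 11.6 CPM in CE, beside 237 CPM in NC. C3AR1, the receptor of the complement fragment C3a, had 76.7, 79.2 and 72.6 CPM and 29.7, 25.2 and 28.5 CPM. CMKLR1, the chemerin receptor, fell 13.3-fold to 0.435 CPM. CCRL2, an atypical receptor, rose 2.61-fold.

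Interferon effectors did not move as one. Of 36 tested, 8 rose, 13 fell and 15 did not pass (median -0.131). MX1, an antiviral GTPase, had 273, 262 and 262 CPM in LPS and 22.7, 22.9 and 23.7 CPM in CE (-3.52 ± 0.046), beside 2.67 CPM in NC. SAMD9L, a growth regulator that interferon induces, had 900.1, 913 and 823 CPM and 466, 453 and 508 CPM, and IFI27 134, 153 and 134 CPM and 44.00, 33.8 and 37.1 CPM. The log2 changes of SAMD9L and IFI27 were -0.88 and -1.87. The interferon-stimulated response element, searched on both strands, was in 22 of 29 promoters of the list (75.9%), beside 3.27% of the promoters of tested genes. Among STAT and IRF factors and SOCS genes, 6 of 19 rose and 5 fell, and without CE 2 these counts were 5 and 9. STAT4 had 18.4, 16.99 and 15.9 CPM in LPS and 3.396, 2.695 and 3.71 CPM in CE, IRF8, a factor of monocyte identity, 329.97, 319 and 323 CPM and 126, 165 and 137 CPM, and IRF2 rose 2.18-fold.

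Nearly all MHC class II genes rose. Of 11 tested genes, 10 rose and 1 fell, with a median of 0.959 (0.991 without CE 2). HLA-DRA had 16.4, 15.8 and 14.4 CPM in LPS and 55.3, 41.3 and 48.5 CPM in CE (1.64 ± 0.10, adjusted p = 1.2e-07). The invariant chain CD74 had 122, 122 and 133 CPM and 253, 243 and 239 CPM, and HLA-DPA1 2.31, 1.56 and 2.13 CPM and 7.63, 5.25 and 6.36 CPM. NC was below LPS for HLA-DRA and CD74 (5.39 and 67.2 CPM), so CE was highest of the 3 groups. HLA genes are alike and polymorphic, and reads can be split among them. Of 18 costimulatory and SLAM receptors 9 rose and 1 fell. CD44, an adhesion receptor, had 386, 367 and 368 CPM in LPS and 1029.7, 909 and 985 CPM in CE. CD274, the PD-1 ligand, had 17.7, 18.2 and 12.7 CPM and 57.4, 52.4 and 60.3 CPM, and CD58, the ligand of CD2, 45.9, 50.5 and 41.9 CPM and 149.7, 134 and 147 CPM. Class I genes were split, with 3 of 18 up and 4 down, and 4 up and 10 down without CE 2. HLA-F fell from 4.21 ± 0.243 to 0.404 ± 0.0333 CPM.

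In the TNF superfamily rises outnumbered falls. Of 18 members of the TNF superfamily and its receptors, 10 rose, 1 fell and 7 did not pass (median 0.705). Without CE 2, 10 rose and 4 fell (median 0.446). CD40, a receptor for T cell help, had 26.6, 27.02 and 25.97 CPM in LPS and 68.1, 60.6 and 63.1 CPM in CE. The death receptor TNFRSF10B had 38.5, 40.1 and 38.5 CPM and 71.4, 85.5 and 75.1 CPM, and FAS rose 2.41-fold. Of 25 other cytokines and receptors 9 rose and 5 fell, and without CE 2, 8 rose and 8 fell. Among them was IL6ST, shared by the IL-6 family, at 182 CPM in LPS and 405 CPM in CE. The chains IL13RA1, CSF2RA and IFNAR1 rose 1.95-fold, 2.42-fold and 1.88-fold. Of 12 factors that destroy cytokine mRNA, 6 rose and 0 fell. The RNase ZC3H12C had 43.3, 43.2 and 37.2 CPM in LPS and 292, 369 and 352 CPM in CE, and the roquins RC3H1 and RC3H2 rose 2.01-fold and 1.81-fold.

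Macrophage surface proteins were split. Of 24 scavenger receptors and macrophage surface proteins, 7 rose and 8 fell. CD36, which takes up oxidised lipoprotein, had 152, 149 and 134 CPM in LPS and 62.8, 54.9 and 63.3 CPM in CE, beside 45.2 CPM in NC. PECAM1, an adhesion molecule of leukocytes and endothelium, rose from 327 ± 14.4 to 556 ± 49.04 CPM. Of 28 inhibitory and paired receptors, 6 rose and 8 fell (6 and 13 without CE 2), and both this list and the previous one had 8 members with CE 2 at least 2-fold above CE 1 and CE 3. CD300LF rose 2.18-fold beside CD300A, and PILRA fell 2.28-fold. Of 10 S100 genes 2 rose and 4 fell. S100A12, a ligand of RAGE, fell from 33.2, 35.1 and 30.1 CPM to 5.71, 4.43 and 6.601 CPM together with S100A8 and S100A9, while S100A10, a partner of annexin A2, rose from 69.6, 67.9 and 68.9 CPM to 244, 199.5 and 220.1 CPM.

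Glucocorticoid handling was divided. HSD11B1 fell as given above, while the glucocorticoid receptor NR3C1 rose from 178, 179.6 and 156 CPM to 401, 369.96 and 407 CPM. The target SGK1, a kinase, rose from 122, 123 and 111 CPM to 538, 457 and 505 CPM, and TSC22D3 rose 4.99-fold. NC had 122 CPM of NR3C1 and 2.12 CPM of SGK1, so CE was highest for both. Of the 11 tested genes 5 rose and 2 fell. Of 15 BCL2 family genes 7 rose and 1 fell, and without CE 2, 7 rose and 5 fell. The anti-apoptotic BCL2A1 had 38.3, 37.9 and 34.5 CPM in LPS and 116, 93.8 and 107 CPM in CE, and the pro-apoptotic BCL2L11 rose 2.08-fold. Of p53 targets and growth arrest genes, CCNG1 rose 2.33-fold and RRM2B 2.07-fold, and BTG2, an antiproliferative gene, fell from 181, 179.8 and 193 CPM to 52.5, 76.00 and 56.95 CPM.

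Secreted proteases and their inhibitors fell in part. Of 11 matrix metalloproteinases and inhibitors 2 rose and 6 fell, with a median of -1.0 (-1.68 without CE 2). ADAMDEC1, a protease of macrophages, had 179.8, 191 and 170.4 CPM in LPS and 49.6, 43.7 and 50.6 CPM in CE. The inhibitor TIMP1 had 56.6, 57.7 and 57.7 CPM and 157, 130.4 and 132 CPM. So a protease fell and an inhibitor rose, while ADAM17, which sheds TNF from the surface, rose 1.64-fold. Of 15 serpins and genes of plasminogen and clotting 4 rose and 8 fell. SERPINB9, the inhibitor of granzyme B, went from 15.4, 14.9 and 12.7 CPM to 0.738, 0.385 and 0.385 CPM, and PLAUR, the urokinase receptor, rose 1.86-fold. Of eicosanoid genes, PLA2G7, which degrades platelet-activating factor, fell 11.1-fold to 0.518 CPM, and the leukotriene enzyme ALOX5 rose 2.30-fold.

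In the TGF-beta, activin and BMP pathway more genes rose than fell. Of 28 tested genes, 16 rose, 3 fell and 9 did not pass (median 0.763). Without CE 2, 12 rose and 3 fell. Rises numbered 12 as well without LPS 1, without LPS 3 and with the batch number as a block. Under other scalings 11 to 15 rose, so the count depended on the processing. SKIL, a repressor of SMAD complexes, had 59.9, 62.6 and 54.6 CPM in LPS and 299, 302 and 323 CPM in CE. The receptor TGFBR1 had 154, 155 and 142 CPM and 351, 349 and 368 CPM, and the co-receptor TGFBR3 9.58, 11.5 and 9.99 CPM and 43.4, 39.2 and 46.98 CPM. THBS1, a matrix protein that can activate TGF-beta, fell from 91.1, 87.2 and 94.7 CPM to 8.27, 9.87 and 9.01 CPM. Of 21 myeloid lineage factors 6 rose and 2 fell, and without CE 2, 6 rose and 7 fell. Among them KLF6 rose 3.02-fold and BACH1, a heme-sensing repressor, 2.84-fold, while MYB fell 1.44-fold. Of immature myeloid genes lysozyme LYZ fell from 142 to 27.7 CPM and the membrane protein MS4A3 from 8.69 to 0.809 CPM. The receptor KIT rose from 15.2 to 33.9 CPM, below the 225 CPM of NC.

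Markers of other cells were low in all 6 libraries with few exceptions. The summed level of 18 lymphocyte markers was 6.06 to 11.0 TPM in NC, 19.9 to 32.3 TPM in LPS and 9.04 to 12.4 TPM in CE. In LPS and in CE, 16 of the 18 were under 1 TPM in every library. Most of the sum in LPS and CE was NKG7, a granule protein, at a mean of 14.2 TPM in LPS and 6.73 TPM in CE, and TRAC. NKG7 fell 2.25-fold. TRAC, a T cell receptor constant gene, was at 7.27, 7.902 and 7.06 CPM in LPS and 1.77, 1.73 and 1.64 CPM in CE. The sum of 18 fibroblast, epithelial and endothelial markers was 0.74 to 2.77 TPM in NC, 46.1 to 74.9 TPM in LPS and 4.68 to 6.65 TPM in CE. Most of the sum in LPS and CE came from the proteoglycans DCN (37.8, 39.4 and 34.4 CPM in LPS, 2.71, 1.59 and 1.93 CPM in CE) and LUM (36.6, 37.7 and 31.2 CPM and 2.56, 2.17 and 1.69 CPM). Of the 4 tested members 3 fell and 1, ACTA2, rose. In CE 16 of these 18 were under 1 TPM in every library. The sum of 20 erythroid and megakaryocyte markers was 1.96 to 3.66 TPM in LPS and 1.59 to 3.66 TPM in CE, and 18 of the 20 were under 1 TPM in every library of each. The part of other cells in the changes was not tested.

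The examples that follow are genes whose call changed when CE 2 was left out. With it, ZFAND3 and PVR, the poliovirus receptor, were called higher, with 17.96, 80.9 and 22.6 CPM and 12.9, 35.4 and 15.4 CPM in CE 1, 2 and 3. Their adjusted p rose from 0.0439 and 0.0197 to 0.301 and 0.0649 when it was left out. These calls also failed elsewhere, being kept in 9 (ZFAND3) and 13 (PVR) of 19 alternative fits. MALAT1, a long noncoding RNA, had 961, 558 and 519.97 CPM in LPS 1, 2 and 3 and 377, 349.5 and 384 CPM in CE. Its call as lower was lost without CE 2, and equally without CE 1, CE 3 or LPS 1, and the log2 change was -0.88 with CE 2 and -0.83 without it. In the other direction, the translation factor EIF4G1 had 67.4, 61.98 and 125 CPM in LPS and 13.9, 114 and 20.1 CPM in CE and was not called with all libraries but lower without CE 2 (-2.32, adjusted p = 0.00035). The RNA-binding protein HNRNPUL1, at 8.17, 82.8 and 13.9 CPM in CE, and the phosphatase regulator PPP1R10, at 3.35, 17.5 and 5.44 CPM, had the same shape. These 3 genes also passed with no filter on low counts, and PPP1R10 in 6 further alternative fits that kept CE 2. In these 3 genes CE 2 was near or above the LPS libraries and CE 1 and CE 3 far below. The groups in which no tested member had CE 2 at least 2-fold above CE 1 and CE 3 included the CC and CXC chemokines, the interleukin-1 family, MHC class II, the S100 genes, the serpins and the cytosolic ribosomal proteins. The medians of the immediate early, NF-kB, STAT and IRF, inflammasome, interleukin-1, chemokine receptor, other cytokine, inhibitory receptor, scavenger receptor, MHC class I, myeloid factor and eicosanoid lists changed sign in at least 1 alternative processing, so no direction is given for them as lists.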

How the data were processed

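Poly(A) RNA of THP-1 cells was captured with oligo-dT beads, per the labels' protocols. The authors deposited estimated counts, TPM and FPKM per gene, with 1 value per library. The build was hg38, per the submitters' processing notes. The aligner, counter, annotation and strand setting were not given in the sources used here, so reads of overlapping or near-identical genes may be split. All 12 columns were matched to samples. The columns of CE are not named for that group: they were matched as the treated set that remained after the columns naming the other groups.

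The deposited estimated counts of 78932 genes were rounded to whole counts. Scaling was by TMM, low genes were removed with filterByExpr (14065 left) and CE was tested against LPS with edgeR 4.0.16 (quasi-likelihood, R 4.3.3), with the 4 groups as terms and Benjamini-Hochberg adjustment. The labels do not say whether a group's libraries came from separate cultures, so its p-values cover only the spread among these samples, which may be technical. The printed standard errors are approximate. The script was tested on simulated data. Alternatives were other scalings and filters, leaving out each LPS and CE library, the batch number as a replicate block, LPS and CE alone, DESeq2 1.42.0, and limma 3.58.1 on log2 of the deposited TPM and FPKM plus a pseudocount of 1 or 0.1. A GC content offset was chosen after seeing the data. GC content is the median over a gene's GENCODE transcripts, and gene positions are GENCODE's.

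The labels give 1 batch number to 1 library of each group, which is taken here as a pairing. The values did not show one: the deviations from group means of same-numbered libraries correlated over 0.1 in 6 of 18 pairs (-0.857 to 0.728 over 7460 genes), and differently numbered libraries such as CE 2 and CEL 1 reached 0.885.

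The genes named are RCAN1, S100A8, HSD11B1 and FCGR2B, the 12 largest rises and 12 largest falls that held without CE 2 with no overlap and a mean log2 CPM of at least 3, up to 4 members per list by smallest p, 6 genes at each end of the CE 2 difference, and 3 per kind of changed call. Members and lists were chosen with earlier results of these data known.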

Additional observations from a re-analysis of the deposited data

How the results depend on the processing

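With 4057 genes higher and 2915 lower, the count of calls moved most in fits with fewer libraries or on log values. With LPS and CE libraries alone 2635 genes were higher. On log2 TPM with limma, 2242 were higher and 1344 lower at a pseudocount of 1, 2205 and 1340 at 0.1, and 1599 and 929 with no filter. Of the changes of at least 2-fold (996 higher and 1046 lower), 582 and 395 remained in number with TPM plus 1, 563 and 371 with no filter, and 320 and 534 with FPKM plus 1. Leaving out 1 library at a time gave 965 to 1836 falls of at least 2-fold, with 1836 without CE 2. The split between directions turned under other scalings: 2945 higher and 4000 lower with upper quartile factors, 3040 and 3833 with library size alone, 2743 and 3516 on FPKM, and 3349 and 4008 with the GC content offset. The median change of all genes moved by -0.179, -0.152, -0.14 and -0.13 in these, so small changes carry no firm direction. Of the calls with all libraries, 1482 rises and 800 falls (32.7% of calls) were kept in each of the 19 alternatives that tested the gene.

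Leaving out 1 library at a time, 6 of the 248 named genes reversed, each without CE 2. Their value was lowest there, and the highest came without CE 1. These 6 were named because CE 2 lay furthest above CE 1 and CE 3 in them, so their reversal followed from that choice. The log2 change ranged from -1.69 to 1.04 for EEF2, -1.85 to 0.815 for PTBP1, -1.54 to 1.10 for MYBL2, -1.17 to 1.42 for LASP1, -1.19 to 1.35 for MYH9 and -1.52 to 1.01 for ACTN4, and the cause was not tested. With the replicate block, the paired fit, 3807 genes were higher and 2751 lower. The block ended the calls of ZFAND3, SQSTM1 and HNRNPA3P6 and changed no other call among the 248 named genes. The falls of MTF1, SLC39A8, IRAK3, MYB and RPL3 did not pass in any of the 3 limma fits on TPM.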
